A study of Mus musculus with 70 samples.

Results

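The genes described here encode glucose transporters and enzymes of glycolysis, and were chosen by name. They are the transporters Slc2a1 and Slc2a3, the hexokinases Hk1 and Hk2, the phosphofructokinase Pfkp, the aldolase Aldoa, then Gapdh, Pgk1, the pyruvate kinase Pkm and the lactate dehydrogenase Ldha. These 10 genes were 10 of the 53465 gene identifiers in the count table, and all 10 were expressed strongly enough to be tested. They were followed in regulatory T cells (Tregs) of 5 male mice, 16.6 to 18.6 weeks old, of the Foxp3YFP-cre line. In this line the Foxp3 locus drives a yellow fluorescent protein joined to Cre, so all groups carried that allele, and no group was without it or received a treatment. Live CD45.2+ CD4+ YFP+ cells negative for markers that include CD8 and CD11b were sorted from 6 sites: back skin, the lamina propria of the colon, visceral fat of the abdomen (VAT), lungs, spleen and blood. In all 6 tissues, ST2+ CD44hi and ST2- CD44hi Tregs were taken, ST2 being the receptor for IL-33 and CD44hi marking effector cells. Resting ST2- CD44lo CD62L+ Tregs were taken from spleen and lungs only, which made 14 groups. Each of the 5 mice gave 1 library of up to 220 cells to every group, 70 libraries in all.

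Glucose enters T cells through facilitative transporters of the GLUT family, of which Slc2a1 encodes GLUT1 and Slc2a3 encodes GLUT3. Hexokinase phosphorylates it, phosphofructokinase commits it to glycolysis, and aldolase splits the sugar. GAPDH, phosphoglycerate kinase and pyruvate kinase then yield NADH, ATP and pyruvate, and lactate dehydrogenase converts pyruvate to lactate. In T cells this pathway is known to be raised after activation through mTOR and Myc and under low oxygen through the transcription factor HIF-1, which binds a short element with the core ACGTG or GCGTG.

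Most of these promoters hold that core, and the stretches around it are shown because HIF-1 is a known regulator of these genes. RefSeq windows (build GRCm38.p6) from 250 bases before to 50 bases after a gene's start matched 9 of the 10 genes, with 14 windows, and Slc2a3 had none. On either strand, ACGTG was present for 8 of the 9 genes, against 21.8% of all 27025 genes with a window, and GCGTG for 5 of the 9, against 35.2%. By window, 19.6% of all 32851 windows held ACGTG and 32.4% held GCGTG. A gene with several windows has more chances to hold a match. Aldoa had 3 windows, of which 2 held ACGTG, and Hk1, Pkm and Ldha had 2 each, of which 1 held it. The longer palindrome CACGTG, which contains ACGTG and is also bound by Myc, was present for 1 of the 9 genes, Ldha, against 8.09% of genes. Below, the match nearest to the start on its upstream side is given 5′ to 3′ on the strand of the gene. Distances are to a RefSeq start, of which a gene can have several. The stretches of Ldha, Pkm and Aldoa lie inside the gene spans printed further below, and that of Slc2a1 crosses the edge of its span. Capitals mark the core, written CACGT where it lies on the opposite strand.
Slc2a1, chr4:119108699-119108723, plus strand, 36 bases before the start: cccgccccggACGTGctccccaggc
Hk2, chr6:82774492-82774516, minus strand, 52 bases before: tgagcacatcCACGTcactgtccgg
Aldoa, chr7:126799366-126799390, minus strand, 126 bases before: tggctcgagtCACGTcctagcgggg
Pgk1, chrX:106186959-106186983, plus strand, 131 bases before: atggaagtagCACGTctcactagtc
Pkm, chr9:59657142-59657166, plus strand, 75 bases before: ccgatccggtCACGTccgcgccgca
Ldha, chr7:46845760-46845784, plus strand, 34 bases before: tgggttcccgCACGTccgctgggct
Gapdh and Hk1 held ACGTG only at or after the start, and Pfkp held GCGTG but not ACGTG. A match of 5 letters describes the sequence and does not show that a factor binds there.

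RNA was amplified with the SMART-Seq v4 kit and made into libraries with NexteraXT, and 58-base single reads were counted per gene. Counts of at least 1000000 were required of a library, so the following were not used: blood ST2+ of mouse 1, colon ST2+ of mouse 2 and colon ST2+ of mouse 5. The other 67 ranged from 1304560 to 2759926 counts (median 2039002), and 7 of them came from fewer than 220 cells. Levels are CPM, counts per 1000000 counts of the scaled library. Foxp3, the defining Treg gene, lay between 105 and 414 CPM in all of them, and every skin library (321 to 414) exceeded every library of the other tissues. Il1rl1, which encodes ST2, was at 230 to 1614 CPM in ST2+ libraries and at 0 to 195 in ST2- libraries, where its highest values were in skin. Markers of other cells were summed over fixed lists. The 10 epithelial markers reached 1404 CPM in colon and 1185 in skin, the 8 fibroblast and fat cell markers 1012 and 737, and the 10 myeloid markers 1323 in colon and 119 in skin. In spleen the same sums were at most 208, 13.9 and 21.3 CPM, with 5, 1 and 7 of the markers at 0 in every CD44hi library. In such bulk samples, fewer cells of a type and less RNA per cell cannot be told apart.

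Compared per kilobase of transcript, the 10 genes spanned more than 2 orders of magnitude. Averaged over the 14 groups, Aldoa was at 303 CPM per kb, Ldha at 292, Pkm at 177, Pfkp at 89.8, Hk1 at 51.4, Slc2a3 at 37.1, Slc2a1 at 30, Gapdh at 28.4, Pgk1 at 7.31 and Hk2 at 1.90. The transporter Slc2a3 thus stood beside Slc2a1, and the hexokinase Hk1 stood far above Hk2. Counts were lowest for Hk2, with 1287 over the 67 libraries and 0 in 2 of them, and next lowest for Pgk1, with 1783. The levels of Gapdh and Pgk1 are uncertain. Of the 57-base words of their main transcripts, 77.7% and 67.8% also occur in other genes, nearly all annotated as pseudogenes, and pseudogenes of Gapdh held 242% of the counts that Gapdh itself held. The other shares were 25.5% for Pkm, 11.2% for Ldha, 8.12% for Aldoa and 0 for the remaining 5 genes. Genes that overlap the same locus were not counted in these shares. Such genes shared 692 words with Pfkp (Pitrm1), 113 with Pkm (Gm49759) and 49 with Slc2a1 (Gm12868).

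**Figure D1:**
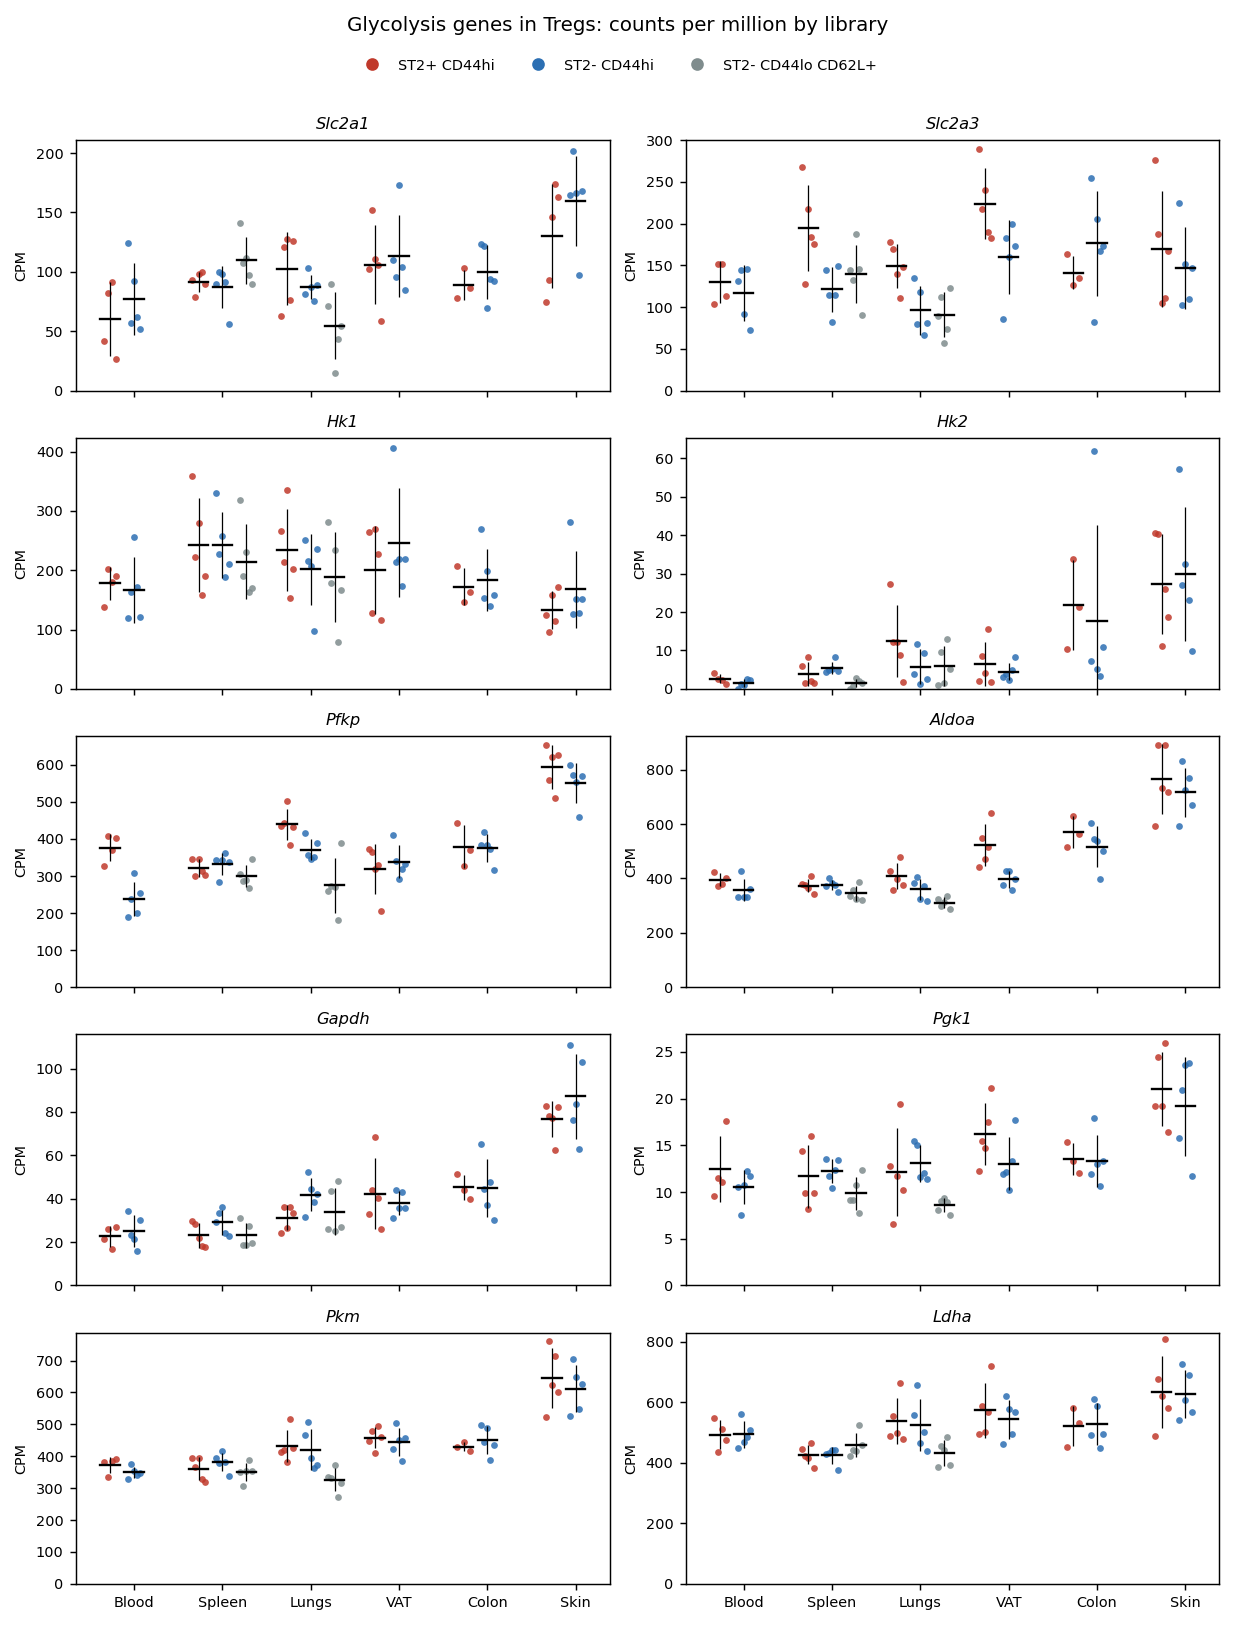
Each point is 1 of the 67 libraries, with CPM on the y axis and the 6 tissues on the x axis for each of the 10 genes. Red marks ST2+ CD44hi, blue ST2- CD44hi and grey ST2- CD44lo CD62L+ Tregs, and bars give the mean and SD. Skin holds the highest group means for Hk2, Pfkp, Aldoa, Gapdh, Pgk1, Pkm, Ldha and Slc2a1, but not for Slc2a3 or Hk1.

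The first question was how far these genes differed between tissues. In CD44hi Tregs, 7 of the 10 were called higher in skin than in both blood and spleen, and 1, Hk1, was called lower than in spleen. Against spleen, Hk2 rose most in skin (6.15-fold), followed by Gapdh, Aldoa, Pfkp, Pkm, Pgk1 and Slc2a1. Against blood, Hk2 (14.5-fold) and Gapdh (3.43-fold) again led, followed by Slc2a1 (2.10-fold). Between the other 5 tissues, 12 calls were made, 5 of Gapdh, 4 of Hk2, 2 of Slc2a3 and 1 of Slc2a1. Gapdh and Hk2 were higher in colon than in spleen, and Slc2a3 was highest in VAT. All 5 of these Gapdh calls were lost when counts of its pseudogenes were added. The Hk2 call in colon against spleen was lost without mouse 2, and the Slc2a3 calls were lost without mouse 5. Gene positions are those of GENCODE M21 on GRCm38. Comparisons between tissues averaged ST2+ and ST2- CD44hi Tregs and used edgeR's quasi-likelihood test over 13173 genes. To be called, a gene needed a fold of 1.5 or more together with an adjusted p (Benjamini-Hochberg) of 0.05 or less. In the test over all 6 tissues, 9 of the 10 were called, against 59.8% of all genes. Ldha was the exception, with an adjusted p of 1.12e-06 but a largest fold of 1.48.

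Of the 150 pairwise tests between tissues, 39 were called, 27 of 50 that involved skin and 12 of 100 that did not. In skin, 8 of the 10 genes were called against spleen, where 41.1% of all genes were called, and 7 against blood (39.2% of all genes). Against lungs 5 were called (29.3%), against VAT 4 (29.1%) and against colon 3 (25.6%). All of these calls were higher in skin except Hk1 against spleen. Among all genes the skin calls were split, with 21% higher and 20.2% lower against spleen. The median log2 fold change over the 10 genes, skin against spleen, was 0.75, beside -0.017 for all genes. Against blood it was 0.87 beside 0.106, against lungs 0.58 beside 0.037, against VAT 0.47 beside 0.009 and against colon 0.53 beside -0.160.

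Outside skin, colon had 2 calls against blood (23% of all genes called) and 2 against spleen (19.5%), which were Hk2 and Gapdh in both, 1 against VAT (8.38%), which was Hk2, and 0 against lungs (14.1%). VAT had 3 calls against blood (15.9%), which were Slc2a3, Slc2a1 and Gapdh, 1 against spleen (15.9%), which was Gapdh, and 1 against lungs (6.16%), which was Slc2a3. Lungs had 2 calls against blood (7.46%), which were Hk2 and Gapdh. Spleen had 0 against blood (7.79%), and lungs 0 against spleen (10.2%). For the 3 pairs with 0 calls in edgeR, the genes with an unadjusted p under 0.05 numbered 3 for spleen against blood, 4 for lungs against spleen and 3 for colon against lungs. Here and below, counts at an unadjusted p are given without the share over all genes. DESeq2, limma voom with quality weights and glmTreat also called 0 in these 3 pairs. Comparisons that involve the same tissue share its libraries, so these counts are not independent.

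**Figure D2:**
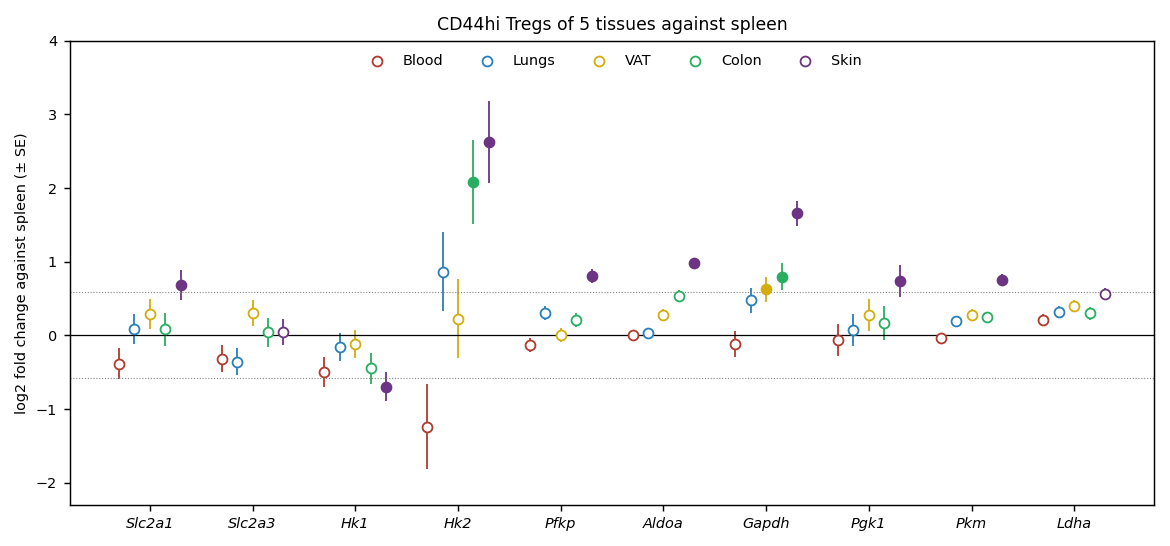
For each gene, the y axis gives the log2 fold change (± SE, edgeR) of CD44hi Tregs of blood, lungs, VAT, colon and skin against spleen, and dotted lines mark a 1.5-fold change. Filled points were called and open points were not. Skin stands highest for Slc2a1, Hk2, Pfkp, Aldoa, Gapdh, Pgk1, Pkm and Ldha and lowest for Hk1, and Slc2a3 has no filled point.

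The glucose transporters differed from each other. Slc2a1 (ENSMUSG00000028645, chr4:119108711-119137983), the basal glucose transporter GLUT1, had a lowest, median and highest level of 75.0, 164 and 202 CPM in skin (n = 10), against 56.2, 92.2 and 100 in spleen (n = 10) and 26.7, 62.2 and 124 in blood (n = 9). In skin 7 of the 10 libraries lay above every spleen library, so the groups overlapped. The rise was 1.61-fold against spleen (log2 0.69 ± 0.20 SE, adjusted p = 0.00387) and 2.10-fold against blood (log2 1.07 ± 0.21, adjusted p = 3.43e-05). Slc2a3 (ENSMUSG00000003153, chr6:122727809-122801640), the high-affinity transporter GLUT3, did not differ between skin and spleen beyond the spread, with 102, 149 and 276 CPM against 82.6, 146 and 268 (log2 0.04 ± 0.18). Its highest tissue was VAT, with 85.2, 187 and 289 CPM, which was 1.58-fold above lungs (66.8, 127 and 178; log2 0.66 ± 0.18, adjusted p = 0.0119) and 1.53-fold above blood (adjusted p = 0.0125). The call of Slc2a3 in VAT against lungs was lost without mouse 4 and without mouse 5, and that against blood without mouse 5. By mean level, Slc2a1 ranked blood, spleen, lungs, colon, VAT and skin, and no gene-wise test between neighbours in this order was called, VAT against skin included (log2 0.39 ± 0.20, adjusted p = 0.121).

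Of the hexokinases, Hk2 was higher and Hk1 lower in skin than in spleen. Hk2 (ENSMUSG00000000628, chr6:82725025-82774454), the inducible isozyme, had 9.97, 26.4 and 57.3 CPM in skin (n = 10). Colon held 3.39, 10.7 and 61.9 CPM (n = 8) and lungs 1.24, 9.04 and 27.3 (n = 10). VAT held 1.92, 3.98 and 15.6 CPM, spleen 1.41, 4.80 and 8.29, and blood 0, 2.30 and 4.26. Every skin library lay above every spleen and every blood library, whereas colon and lungs overlapped with both. Skin was 6.15-fold above spleen (log2 2.62 ± 0.56, adjusted p = 7.86e-05) and 14.5-fold above blood (log2 3.86 ± 0.63, adjusted p = 7.4e-07), and it was also above VAT (5.25-fold) and lungs (3.37-fold). Colon was 4.23-fold above spleen (log2 2.08 ± 0.57, adjusted p = 0.00421). Without all libraries of mouse 2, whose colon ST2- library held the 61.9 CPM, the log2 fold change was 1.25 and the adjusted p was 0.163. That colon library also held 2170 CPM of markers of other cells. Skin and colon did not differ beyond their spread (log2 0.54 ± 0.57). Hk1 (ENSMUSG00000037012, chr10:62268855-62379908), the constitutive isozyme, had 95.3, 140 and 282 CPM in skin and 158, 225 and 359 in spleen, overlapping groups, and was 1.62-fold lower in skin (log2 -0.70 ± 0.20, adjusted p = 0.00246). Hk1 was lower in skin than in spleen in all 5 mice, in ST2+ and in ST2- cells. Against blood, Hk1 did not differ beyond the spread in skin (log2 -0.20 ± 0.20, adjusted p = 0.435) or in colon (log2 0.05 ± 0.22). Per kilobase, Hk2 made up 0.835% ± 0.627 (SD, n = 9) of the Hk1 and Hk2 transcripts in blood, 1.33% ± 0.746 (n = 10) in spleen, 7.19% ± 7.3 (n = 8) in colon and 12.1% ± 5.78 (n = 10) in skin.

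Pfkp and Aldoa were both higher in skin than in spleen, without overlap. Pfkp (ENSMUSG00000021196, chr13:6579768-6648777), the platelet-type isozyme of the committing step, had 459, 571 and 654 CPM in skin, against 283, 339 and 361 in spleen, 190, 307 and 407 in blood and 206, 331 and 412 in VAT. All 10 skin libraries lay above every library of spleen, blood, VAT and colon (316, 379 and 442), and 9 of 10 lay above every lung library (346, 401 and 503). The rise was 1.75-fold against spleen (log2 0.81 ± 0.09, adjusted p = 5.63e-11), 1.91-fold against blood, 1.74-fold against VAT and 1.51-fold against colon. Against colon, the fold of Pfkp fell below 1.5 without mouse 3 and without mouse 5. Pfkp locus reads may include some of the overlapping gene Pitrm1, which the counting could not always separate. Aldoa (ENSMUSG00000030695, chr7:126795234-126800751), the main aldolase of muscle and immune cells, had 592, 729 and 892 CPM in skin, 398, 542 and 631 in colon, 359, 434 and 639 in VAT, and 341, 374 and 409 in spleen. Blood (332, 371 and 428) and lungs (316, 379 and 479) lay at the level of spleen. Aldoa was 1.97-fold higher in skin than in spleen (log2 0.98 ± 0.07, adjusted p = 1.12e-17), and colon was between them at 1.45-fold (adjusted p = 2.55e-07), just short of the fold needed for a call, which it reached without mouse 4.

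Gapdh, Pgk1 and Pkm also rose in skin. Gapdh (ENSMUSG00000057666, chr6:125161715-125166467), which oxidises glyceraldehyde phosphate, had 62.6, 80.3 and 111 CPM in skin, 30.2, 44.5 and 65.3 in colon, 26.2, 38.2 and 68.5 in VAT and 24.3, 36.3 and 52.2 in lungs. Spleen held 17.6, 26.1 and 36.1 CPM and blood 15.8, 23.1 and 34.2, all below every skin library. Skin was 3.15-fold above spleen (log2 1.66 ± 0.17, adjusted p = 3.73e-12), and colon 1.74-fold (adjusted p = 0.00067). When counts of pseudogenes that share sequence with Gapdh were added, all 5 Gapdh calls without skin were lost and the skin calls were kept. Not all of these pseudogenes are near-identical to Gapdh. Of the 1438 words of its transcript, Gm7336 shared 1117 and held 35 counts, whereas Gm9341 shared 1 and held 68 counts. How many Gapdh reads were misplaced was not tested. Over all alternatives, the log2 fold change of Gapdh in skin against spleen ranged from 1.29 to 1.75. Pgk1 (ENSMUSG00000062070, chrX:106187100-106203699), which makes the first ATP of the pathway, had 11.7, 20 and 25.9 CPM in skin and 8.20, 12.1 and 16 in spleen, with 8 of 10 skin libraries above every spleen library (1.67-fold, log2 0.74 ± 0.22, adjusted p = 0.00348). Pkm (ENSMUSG00000032294, chr9:59656368-59679375), pyruvate kinase of the muscle type, had 522, 626 and 763 CPM in skin, above every library of the other 5 tissues, which ranged from 318 to 517. Pkm was 1.69-fold higher in skin than in spleen (log2 0.76 ± 0.07, adjusted p = 3.06e-14), 1.74-fold higher than in blood and 1.39- to 1.47-fold higher than in VAT, colon and lungs. Some Pkm reads may come from the overlapping gene model Gm49759, and splice forms of Pkm were not separated by gene counts.

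Ldha was not called between skin and spleen, whereas its partner isozyme fell. Ldha (ENSMUSG00000063229, chr7:46841475-46855627), which favours conversion of pyruvate to lactate, had 487, 614 and 808 CPM in skin and 377, 430 and 466 in spleen, without overlap. The 1.48-fold difference (log2 0.57 ± 0.08, adjusted p = 2.66e-08) was just under the fold needed for a call, and it passed under 5 of 19 alternatives. Ldhb, the heart-type isozyme that favours the reverse reaction, was at 31.7 ± 12.2 CPM (SD, n = 10) in skin and 124 ± 8.9 (n = 10) in spleen. Ldhb was 3.89-fold lower in skin (log2 -1.96 ± 0.14, adjusted p = 3.79e-18). Per kilobase, Ldhb made up 28.3% ± 1.61 of Ldhb and Ldha together in spleen and 6.47% ± 2.4 in skin, with blood (20.3% ± 2.43, n = 9), lungs (18.4% ± 2.78, n = 10), VAT (16.6% ± 4.86, n = 10) and colon (14.9% ± 3.76, n = 8) between them. The highest skin library, at 10%, was below every spleen library, whose lowest was 25.1%. Pfkp made up 61.0% to 69.0% of Pfkp and Pfkl together in the 6 tissues, and Aldoc 2.21% to 7.39% of Aldoc and Aldoa.

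**Figure D3:**
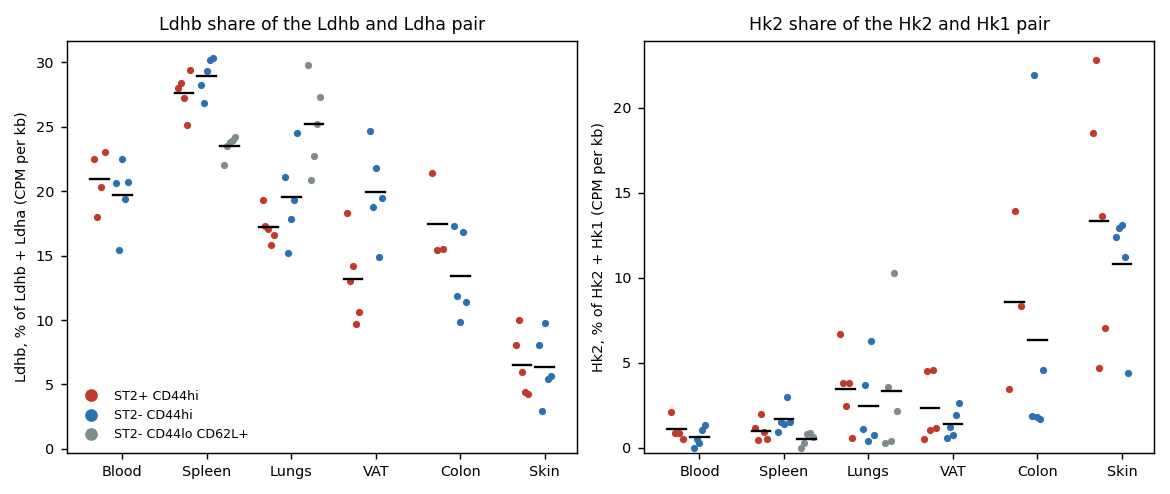
Each point is 1 library, with the share of Ldhb in Ldhb and Ldha together (left) and of Hk2 in Hk2 and Hk1 together (right) on the y axis, in percent of CPM per kb, by tissue. Red, blue and grey mark ST2+ CD44hi, ST2- CD44hi and ST2- CD44lo CD62L+ Tregs, and bars give means. The Ldhb share falls from 28.3% in spleen to 6.47% in skin, and the Hk2 share is highest in skin at 12.1%.

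Markers of dissociation and of other cells moved with the tissues too. The 11 genes of the dissociation and heat shock list, which respond to enzymes and warming during isolation, summed to 1198 to 2247 CPM in blood, 1406 to 3201 in spleen and 3295 to 5355 in lungs. The sums were 2638 to 7987 CPM for VAT, 5090 to 8960 for colon and 5489 to 7837 for skin. Skin was digested for longest, and blood and spleen were not digested, so tissue and preparation cannot be told apart. The part of this list in the differences between tissues was not tested. Without the 3 skin libraries that held over 800 CPM of other cells' markers, 48 of the 50 calls for the 10 genes in all comparisons were kept. The 50 include calls that compare no skin group, among them 12 in tissue pairs, which this cut could hardly change. The calls that involve skin were 27 in tissue pairs and 9 in the test over all tissues. The lost calls were both of Pgk1, in skin against lungs and in the test over all tissues. This cut was applied to skin only, so the colon calls were not checked in this way. Colon libraries above it were kept, ST2+ of mice 1, 3 and 4 (2624, 3615 and 2477 CPM) and ST2- of mouse 2 (2170 CPM).

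The next question was whether ST2+ Tregs differed from ST2- Tregs of the same tissue. Pfkp in blood was the only call, higher in ST2+ cells. Its levels were 328, 369, 402 and 407 CPM in the 4 ST2+ libraries and 190, 200, 238, 254 and 307 in the 5 ST2- libraries, without overlap and higher in 4 of 4 mice (1.58-fold, log2 0.66 ± 0.14, adjusted p = 0.00126). The share of all genes called was 4.04% for blood, 3.12% for VAT, 0.782% for lungs, 0.319% for spleen, 0.213% for skin and 0.0683% for colon. In the other 5 tissues, where 0 of the 10 genes were called, the count at an unadjusted p under 0.05 was 1 each for spleen, lungs and VAT and 0 for colon and skin, and DESeq2 and limma voom with quality weights also called 0. The Pfkp call was lost when only the groups compared were fitted (adjusted p = 0.0609) and when glmTreat tested against a 1.5-fold minimum (adjusted p = 0.671), the range over all alternatives being 3.09e-05 to 0.671. In spleen, Pfkp was at 299, 303, 313, 346 and 347 CPM in ST2+ cells and at 283, 337, 342, 342 and 361 CPM in ST2- cells, with no such difference (log2 -0.05 ± 0.13).

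In VAT, Aldoa was higher in ST2+ cells, with 443, 472, 514, 548 and 639 CPM against 359, 375, 396, 426 and 426 in ST2- cells. The groups did not overlap and the adjusted p was 0.0146, but the 1.32-fold difference (log2 0.40 ± 0.10) was too small for a call. Slc2a3 in spleen had 128, 176, 184, 217 and 268 CPM in ST2+ cells against 82.6, 115, 115, 144 and 149 in ST2- cells, higher in 5 of 5 mice. Its 1.61-fold difference did not pass the adjusted test (log2 0.69 ± 0.25, adjusted p = 0.537), and neither did that in lungs (1.55-fold, adjusted p = 0.329), also in 5 of 5 mice. Over the mean of the 6 tissues, 0 of the 10 genes were called (4.21% of all genes), with 3 at an unadjusted p under 0.05, Slc2a3, Pfkp and Aldoa. Aldoa passed the adjusted test (log2 0.16 ± 0.04, adjusted p = 0.013) at 1.12-fold, and Pfkp (adjusted p = 0.0881) and Slc2a3 (adjusted p = 0.064) did not. DESeq2, limma voom with quality weights and glmTreat also called 0.

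Whether the ST2 difference itself differed between tissues was tested as an interaction. None of the 10 genes passed in edgeR, against 1.43% of all genes, and 1, Pfkp, had an unadjusted p under 0.05 (adjusted p = 0.0985). Pfkp did pass in DESeq2 (adjusted p = 0.0147), in limma voom with quality weights (adjusted p = 0.0274) and when only the CD44hi groups were fitted (adjusted p = 0.044). Its ST2 differences ran from log2 0.66 ± 0.14 in blood and 0.24 ± 0.13 in lungs to -0.09 ± 0.13 in VAT.

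**Figure D4:**
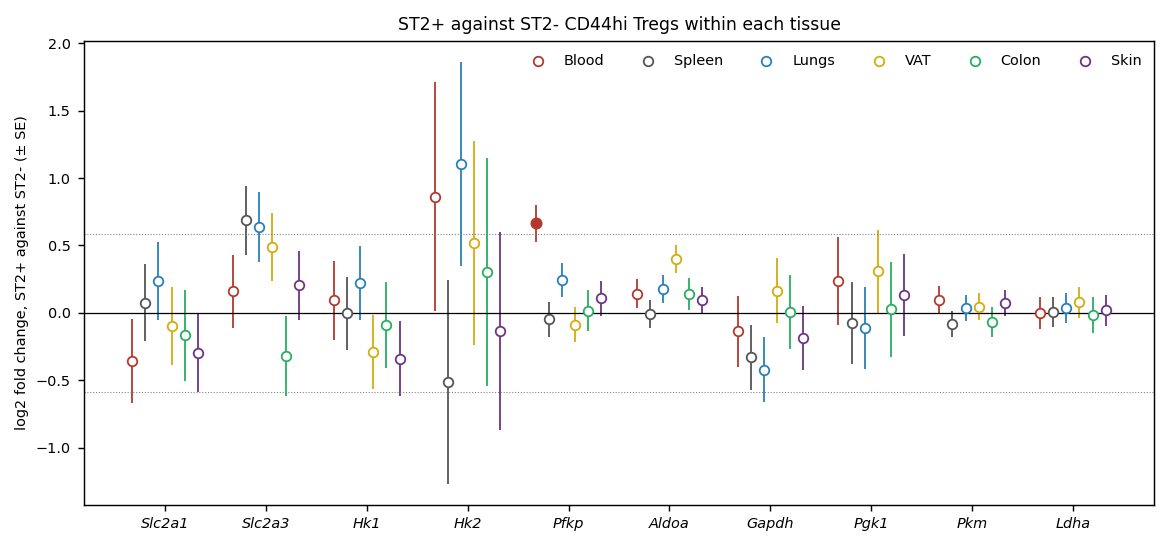
For each gene, the y axis gives the log2 fold change (± SE, edgeR) of ST2+ against ST2- CD44hi Tregs in each of the 6 tissues, and dotted lines mark a 1.5-fold change. The filled point, Pfkp in blood at 0.66, was the only call, and Hk2 has the widest errors.

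Effector and resting Tregs were compared in spleen and lungs as ST2- CD44hi against ST2- CD44lo CD62L+ cells. None of the 10 genes was called in either tissue by edgeR, against 5.03% of all genes in spleen and 5.53% in lungs, and 1 and 5 genes had an unadjusted p under 0.05. Hk2 in spleen was at 4.49, 4.57, 5.02, 5.22 and 8.29 CPM in CD44hi cells and at 0, 0.794, 1.55, 2.07 and 2.71 CPM in CD44lo cells. The groups did not overlap, yet the 3.78-fold difference did not pass at this depth (log2 1.92 ± 0.80, adjusted p = 0.178), and it passed in limma voom with quality weights (adjusted p = 0.0263). DESeq2 called 0. In lungs, Pkm (log2 0.36 ± 0.10, adjusted p = 0.0119) and Pfkp (log2 0.43 ± 0.13, adjusted p = 0.0299) passed the adjusted test in favour of CD44hi cells, at 1.29- and 1.35-fold. Pkm, Aldoa, Pgk1, Ldha and Slc2a1 were higher in CD44hi cells of lungs in all 5 mice. Pfkp and Gapdh were higher in 4 mice, Hk1 in 3, and Hk2 and Slc2a3 in 2. The share of all genes with such signs is not given. In spleen, Slc2a1 was lower in CD44hi cells in all 5 mice (log2 -0.33 ± 0.29, adjusted p = 0.742).

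Resting Tregs themselves were compared between lungs and spleen. Slc2a1 was lower in lungs, at 15, 43.1, 54.3, 71.3 and 89.9 CPM against 90.1, 97.6, 107, 112 and 141 in spleen, without overlap and lower in 5 of 5 mice. The 2-fold difference was called (log2 -1.0 ± 0.29, adjusted p = 0.0346), against 3.16% of all genes, and no other of the 10 genes was. Its adjusted p went above 0.05 without mouse 1, 3, 4 or 5, with log2 fold changes from -1.25 to -0.74 over all alternatives.

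Other genes of glucose metabolism were counted from fixed lists, skin against spleen in CD44hi Tregs. In this comparison 41.1% of all genes were called, 21% higher and 20.2% lower. Of 15 other glycolytic enzymes tested, 3 rose and 3 fell, with a median log2 fold change of 0.44. Tpi1, which interconverts the products of aldolase, rose 1.94-fold (adjusted p = 7.77e-08) and Aldoc, the brain-type aldolase, 3.13-fold (adjusted p = 0.0022). Pgam1, a phosphoglycerate mutase, also rose. Ldhb, Eno3 and Hk3 were lower, Hk3 having 0 counts in all skin libraries and 47 in spleen, at least 12.4-fold lower against a floor of 3 counts over the group. Pfkl, the liver-type phosphofructokinase, was 1.39-fold higher and not called.

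Among 7 other sugar and lactate transporters, 3 rose and no other was called (41.1% of all genes called), with a median of 0.60. Slc16a3, the lactate exporter MCT4, was at 44.0 to 94.7 CPM in skin and 1.14 to 24.3 in spleen (8.80-fold, log2 3.14 ± 0.54, adjusted p = 2.23e-06). The highest library of any other tissue, in VAT, held 40 CPM of Slc16a3. Slc16a1, the lactate carrier MCT1, rose 2.70-fold (adjusted p = 8.99e-07) and Slc2a8 1.88-fold (adjusted p = 0.0348). Bsg, the chaperone of both lactate carriers, was 1.49-fold higher and not called.

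Among 22 regulators, 6 rose and 2 fell, a share not above the 41.1% of all genes called, with a median of 0.23. Hif1a, the oxygen-regulated subunit of HIF-1, rose 2.16-fold (651 ± 65.9 CPM in skin, 302 ± 55.7 in spleen, SD, n = 10 each, adjusted p = 2.25e-15), and its partner Arnt 2.12-fold (adjusted p = 1.21e-05). Rheb, which activates mTOR, rose 2.48-fold (adjusted p = 1.17e-16). Myc fell 2.52-fold (adjusted p = 2.22e-07), and Tbc1d4, which regulates traffic of the transporter GLUT4, was at 4.23 ± 5.34 CPM in skin and 276 ± 115 in spleen. Of 13 HIF-1 targets outside glycolysis, 8 rose and 1, Car9, fell, with a median of 1.77. Beside them, 10 of the 11 dissociation and heat shock genes were higher in skin, with a median of 1.70, and the fibroblast and fat cell markers summed to 5.97 to 737 CPM in skin and 0 to 13.9 in spleen. Their part in the HIF-1 target result was not tested. The 13 genes do not cover every HIF-1 target, and Pdk1, counted in another list below, fell 2.34-fold (adjusted p = 3.53e-07). Mxi1, a Myc antagonist, rose 10.4-fold from 43.0 ± 10.3 to 448 ± 43.9 CPM. Ndrg1 rose 17.1-fold, Egln3, a HIF prolyl hydroxylase, 13.2-fold, Ero1l, an oxidase of disulfide formation, 7.52-fold and P4ha1, a collagen prolyl hydroxylase, 3.07-fold. Vegfa, a vascular growth factor, was at 28.4 ± 22.0 CPM in skin and 0.141 ± 0.445 in spleen. Adm, singled out after its values were seen, had 158 counts in skin and 0 in spleen, at least 76.1-fold higher against the same floor of 3 counts.

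Of 17 TCA cycle genes, 5 fell and no other was called, with a median log2 fold change of -0.33. The largest fall was in Fh1, fumarase (2.48-fold, adjusted p = 2.42e-05), followed by Suclg1, Idh2, Sdha and Sdhc at 1.52- to 1.85-fold. The 7 pentose phosphate genes had a median of -0.23 without a call, and Pgls (log2 -0.58 ± 0.13, adjusted p = 0.00014) was just short of the fold. Of 13 genes for entry of pyruvate into mitochondria, 2 rose and 2 fell. Pdk1 and Pdk2, kinases that switch off pyruvate dehydrogenase, fell 2.34- and 2.94-fold, while Pdp1, the opposing phosphatase, rose 3.68-fold (adjusted p = 9.91e-09) and Mpc1, a pyruvate carrier, 1.79-fold. For all lists, 41.1% of all genes were called in this comparison.

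**Figure D5:**
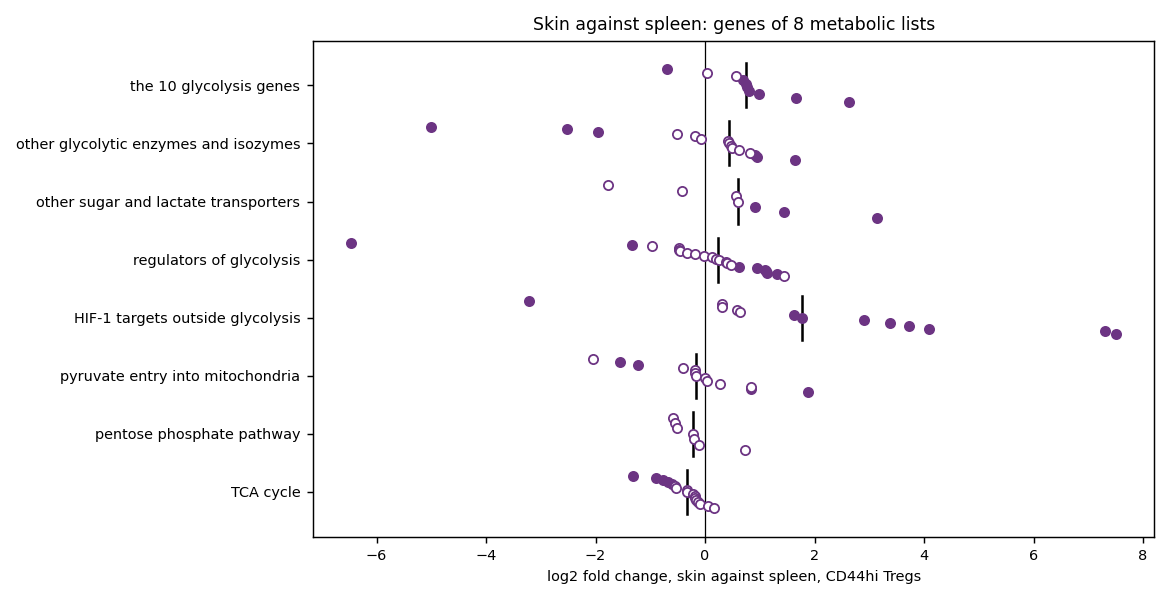
Each point is 1 gene of a list, placed at its log2 fold change in skin against spleen CD44hi Tregs (x axis, edgeR), and the vertical bars are list medians. Filled points were called. The 10 glycolysis genes have a median of 0.75, HIF-1 targets 1.77 and TCA cycle genes -0.33, and the fitted values of Hk3 and Adm, each with 0 counts in 1 of the tissues, depend on the prior count.

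Over the 14 group means of log2 CPM, the genes rose and fell together except for Hk1 and, in part, Slc2a3. The median Pearson r over their 45 pairs was 0.661, highest for Pgk1 with Pkm (0.952) and Aldoa with Pkm (0.926). Hk1 had negative r with 8 of the other genes, from -0.025 with Slc2a1 to -0.597 with Aldoa, and 0.117 with Slc2a3. Slc2a3 had at most 0.548, with Slc2a1. The points share mice, and 2 of the 14 groups are skin, so these are descriptions. Scaled to mean 0 and SD 1, the average of the 10 genes was 1.31 and 1.26 in ST2- and ST2+ skin Tregs, at most 0.46 elsewhere, and lowest in resting Tregs of lungs (-1.16) and ST2- Tregs of blood (-0.93). By the same measure the tested genes most like that average were Snx9 (r = 0.966), Gla (0.961), Atf6 (0.961), Rab8b (0.959) and Pld3 (0.956). For single genes the nearest were Sod2 for Aldoa (0.974), Cltc for Pkm (0.973), Ube2j1 for Gapdh (0.969), Tldc1 for Hk1 (0.958), Uhrf1bp1l for Ldha (0.954), Hmces for Pgk1 (0.945), Dusp16 for Hk2 (0.944), Kctd9 for Pfkp (0.927), Hmgcs1 for Slc2a1 (0.897) and Aprt for Slc2a3 (0.863).

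Some differences between mice recurred across groups. Mouse 1 had the highest Hk1 level in 9 of the 13 groups in which it had a library, and mouse 4 the lowest in 8 of 14. In ST2+ spleen Tregs, for example, Hk1 was at 359, 222, 280, 158 and 191 CPM in mice 1 to 5, and in resting spleen Tregs at 318, 191, 231, 163 and 170. Mouse 1 also had the highest Slc2a3 level in 8 of 13 groups and the lowest Ldha level in 8 of 13. In skin, mouse 1 had the lowest Aldoa and Ldha levels of both populations, at 592 and 594 CPM for Aldoa and 487 and 541 for Ldha, and the highest Hk2 levels, at 40.5 and 57.3 CPM.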

How the data were processed

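Tregs were sorted, and libraries were made with SMART-Seq v4 and NexteraXT and read as 58-base single reads. The authors aligned them with STAR to GRCm38 and counted them per Ensembl gene with HTSeq 0.4.1. The deposited values are raw counts, whole numbers that are not normalized. The kit does not mark strand, so reads of overlapping genes cannot always be separated, and reads that match several copies of a gene may be lost or misplaced. Blood and spleen were not digested, whereas lungs, VAT and colon were digested for a shorter time than skin.

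From the counts, 13173 protein-coding genes that reached 1 CPM in 10% or more of the 67 libraries were tested with edgeR 4.0.16 in R 4.3.3, using TMM factors, 1 coefficient for each of the 14 groups and the quasi-likelihood test. Tissue contrasts averaged both CD44hi populations. P-values were adjusted over all tested genes. Levels are CPM, and log2 CPM used a prior count of 2. Groups came from the labels. Python 3.11.15 (pandas 2.3.3, matplotlib 3.10.9) was used for tables and plots. Scripts were tested on simulated data.

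A replicate number names a mouse, so same-numbered libraries are paired by animal. The deviations from group means of the same mouse correlated with a mean r of 0.0543 (416 pairs, -0.164 to 0.437, 7496 genes), and those of different mice with -0.0128 (1666 pairs). Among 129 within-group pairs of libraries, 0 were identical. Libraries hold amplified RNA without molecular identifiers, so intervals from counts would cover counting error only.

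The 10 genes, the other lists and the tests were chosen with earlier results of these data known. All 10 were described in every group. From each list, up to 6 genes were named by smallest adjusted p in the test over tissues or the mean ST2 contrast, with isozymes and partners of the 10 and genes behind small counts added. The most similar genes were taken by Pearson r over the 14 group means, 1 per gene and 5 for the average. Alternatives were DESeq2 1.42.0, limma 3.58.1 (voom with quality weights), a replicate block, median-of-ratios factors, other filters, all gene types, all 70 libraries, sorted cell number as a covariate, glmTreat, fits of the compared groups only and each mouse left out. Adding counts of copies that share sequence with a gene and leaving out 3 skin libraries were chosen after seeing the data. Gene names and lengths came from GENCODE M21, which held 53274 of the 53465 identifiers, and promoters from RefSeq.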

Additional observations from a re-analysis of the deposited data

Results flagged for a closer look

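Within groups of 4 or 5 mice, 12 of 130 sets of values held 1 library far from the others by Dixon's test, of which chance gives about 1 in 20. The glucose transporter Slc2a1 was low in ST2- spleen Tregs of mouse 5, at 56.2 CPM beside 89.7 to 100 in the others, and in ST2- skin Tregs of mouse 4, at 97.2 CPM beside 165 to 202. Slc2a3 was low in ST2- VAT Tregs of mouse 1, at 85.2 CPM beside 160 to 199. Hk1 was low in ST2- lung Tregs of mouse 4, at 98.1 CPM beside 208 to 251. In mouse 1 it was high, at 407 CPM beside 173 to 219 in ST2- VAT Tregs and at 282 CPM beside 127 to 151 in ST2- skin Tregs. Hk2 was high in ST2- spleen Tregs of mouse 4, at 8.29 CPM beside 4.49 to 5.22. Pfkp was low in ST2- spleen Tregs of mouse 2, at 283 CPM beside 337 to 361, and in ST2+ VAT Tregs of mouse 5, at 206 CPM beside 319 to 374. Gapdh was low in ST2+ skin Tregs of mouse 4, at 62.6 CPM beside 77.4 to 82.7. Pkm was low in ST2+ blood Tregs of mouse 3, a library of 55 sorted cells, at 335 CPM beside 382 to 391. Ldha was low in ST2- spleen Tregs of mouse 5, at 377 CPM beside 429 to 443.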

How the results depend on the processing

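The number of the 10 genes called over all tissues was 9, and 7 to 10 with 1 mouse left out. That call was lost for Pgk1 without mouse 2, 3 or 4. It was lost for Hk1 without mouse 2 or 3, and for Slc2a3 without mouse 4 or 5. In the 15 tissue pairs 39 calls became 19 when glmTreat tested against a 1.5-fold minimum, and 33 to 45 with 1 mouse left out. The 1 ST2 call, Pfkp in blood, became 0 under glmTreat and with only the compared groups fitted, and stayed 1 without any 1 mouse. The interaction gave 0 calls, but 1 under DESeq2, under limma voom with quality weights, with or without the replicate block, and with only the compared groups. Effector against resting Tregs gave 0, but 1 (Hk2 in spleen) under limma voom with and without the block. The 1 call between resting Tregs of lungs and spleen became 0 with all 70 libraries, under glmTreat, with only the compared groups and without mouse 1, 3, 4 or 5 (0 to 1 over mice left out). No result changed direction while called. With the replicate block in edgeR, all 50 calls were kept, 0 were lost and 0 gained, so the block changed no call. Over all alternatives, the 50 called results gave 847 of 941 values still called. Low counts limit Hk2 and Pgk1 most. Without mouse 2, Hk2 was no longer called in colon against spleen, colon against VAT or lungs against blood. Its call in colon against VAT was also lost without mouse 3. Without 1 or more single mice, Gapdh was not called in lungs against blood or VAT against spleen, Pgk1 in skin against lungs, Pfkp in skin against colon, Slc2a1 in skin against colon or lungs or VAT against blood, and Slc2a3 in VAT against blood or lungs. With all 70 libraries Slc2a1 in VAT against blood fell to log2 0.225. The causes were not tested.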

Other observations

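Some HIF-1 targets outside glycolysis were also called between tissues other than skin. Of the 13 genes, 6 rose in colon against spleen (median log2 fold change 1.21), where 14.7% of all genes were called higher. Against spleen, 5 rose in VAT (0.38, 8.8%) and 4 in lungs (0.78, 6.16%). In spleen, 3 were lower than in blood (2.98% of all genes called lower). Skin exceeded colon for 6 of the 13, with 1 lower (median 1.05, 9.72% of all genes called higher and 15.9% lower). Skin exceeded blood for 8 (2.04, 22.6% called higher). Over the mean of the 6 tissues, Ndrg1, Ero1l and Egln3 were higher in ST2+ than in ST2- Tregs (2.38% of all genes called higher). They were also higher in VAT alone (1.27%). Of the 17 TCA cycle genes, 4 to 7 were called lower in skin against each other tissue. The share of all genes called lower there was 13.8% to 20.2%. Against blood, 1 was called higher (22.6% of all genes). None of the 17 was called in colon, VAT or lungs against spleen by edgeR. These lists were chosen with earlier results of these data known.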
